A study of Arabidopsis thaliana with 12 samples.

Results

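Arsenate given alone to Arabidopsis thaliana roots was compared with untreated control roots across every gene that the array annotation pairs with a row of its own. The comparison uses 6 of the 12 arrays of the series, 3 of arsenic-treated roots and 3 of control roots, and 16548 genes. A gene was taken where its row named 1 gene, whether by a symbol or by a bare locus code, and where several rows named it the row with the highest mean over the 12 arrays stood for it. No measured change entered that choice.

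Arsenate resembles phosphate and enters root cells through phosphate transporters. Inside the cell it is reduced to arsenite, which binds thiol groups of proteins and is itself bound by glutathione and phytochelatins. Plants under arsenic are known for oxidative stress, protein damage and slower root growth.

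The plants were wild type Col-0, grown hydroponically for 32 days and then treated for 7 days, so that every root was 39 days old at harvest. Arsenic roots received 250 µM arsenate in the nutrient medium, and control roots received none. The 6 remaining arrays came from hypoxic roots (hypoxia, 3 arrays) and from roots given 250 µM arsenate in hypoxic medium (combination, 3 arrays) of the same age and treatment time, and they enter here to estimate the spread and in the last comparison. The submitters describe the replicates as fully independent. Whole roots were used, so fewer cells of a type and less RNA per cell cannot be told apart in any result that follows.

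The values are log2 signals, in which a difference of 1 is a 2-fold change, and signals of different genes are not compared with each other. The median signal was 4.92 to 4.99 in the control arrays and 4.88 to 4.97 in the arsenic arrays. Across genes, arrays of the same group correlated at 0.983 to 0.991 and control with arsenic arrays at 0.946 to 0.965. The beta-glucosidase gene PYK10, an abundant root transcript, had a mean control signal of 12.15. Of the green tissue markers, RCA (5.31), PSAN (3.76) and LHCB4.1 (6.10) were measured, and the last 2 fell (by 0.76 and 0.72). The fall of PSAN passed again only in the fit that left out control array 1.

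Arsenate changed 2965 of the 16548 genes (17.9%) at an adjusted p under 0.05 in limma's moderated test on all 12 arrays, with 1380 that rose (8.34%) and 1585 that fell (9.58%). Most changes were moderate. A change of at least 2-fold was reached by 511 rises and 675 falls, of at least 8-fold by 42 and 28, and of at least 32-fold by 9 and 2. The 3 arsenic arrays did not overlap the 3 control arrays in 6477 genes (39.1%), and 2948 of these passed the test. Of the 20927 rows that the annotation does not list, 2126 passed (10.2%). Genes known by a locus code alone passed about as often as genes with a name. Of the 14590 with a code alone, 1190 rose and 1393 fell (17.7%), and of the 1958 with a name, 190 rose and 192 fell (19.5%). Leaving out arsenic array 3 lowered the number that passed to 1889, and leaving out control array 2 lowered it to 1947. The balance of rises and falls moved with the scaling. Rises were 46.5% of the calls as deposited and 59.5% (1804 rose and 1228 fell) after every array was re-centred on the median of the genes tested, an alternative chosen after seeing the data, which shifts each change by 0.095.

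**Figure D1:**
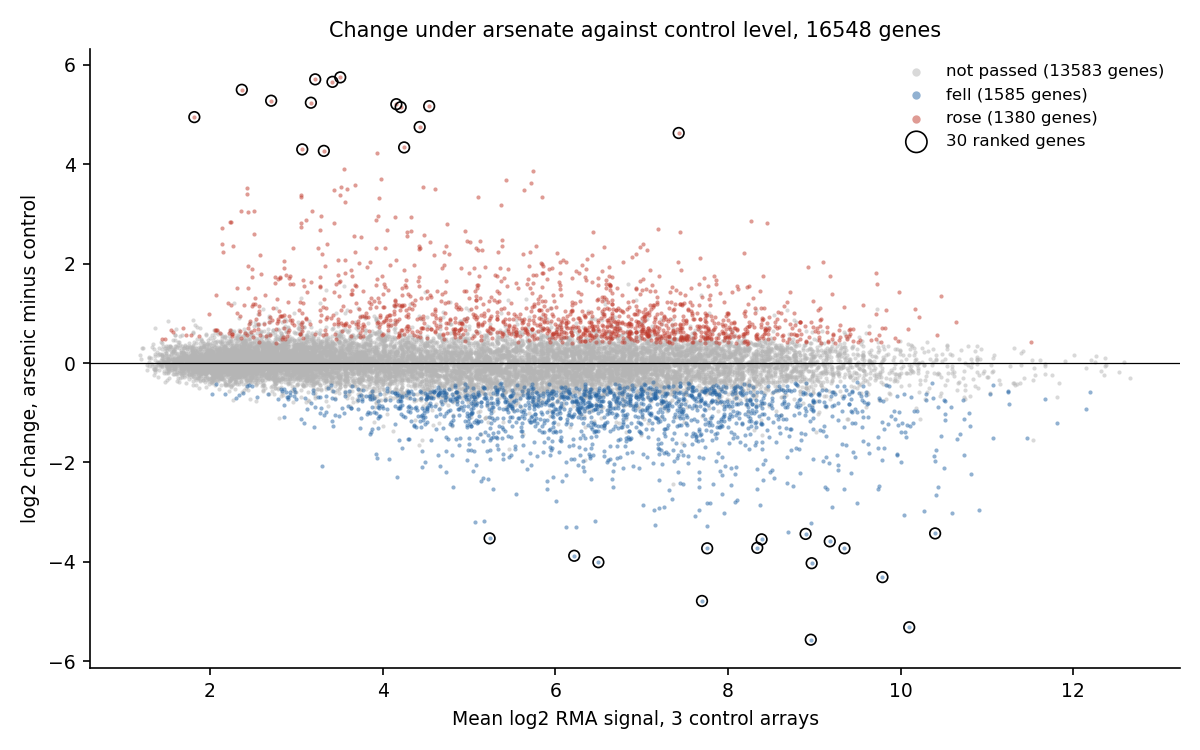
Each point is 1 gene, with its mean log2 signal in the 3 control arrays on the horizontal axis and its log2 change (arsenic minus control) on the vertical axis, coloured by whether the gene passed as higher (1380) or lower (1585) or not at all (13583). The 15 largest rises (circled, above) start from control means of 1.82 to 7.43, and the 15 largest falls (circled, below) from control means of 5.24 to 10.40.

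Of the 15 largest rises 14 were in genes that the annotation knows by a locus code alone. Most genes tested have such a code alone (14590 of 16548), so the count lies near their share. AT5G51440 read 3.06, 3.47 and 4.00 in control arrays 1 to 3 and 9.15, 8.92 and 9.74 in arsenic arrays 1 to 3. That is a 53.9-fold rise (log2 change 5.75, SE 0.37, adjusted p = 1.74e-06). AT1G07400 read 3.68, 2.60 and 3.37 in control roots and 9.16, 8.26 and 9.37 with arsenate, a 52.5-fold rise (5.71, SE 0.58, adjusted p = 4.13e-05). AT4G32950 read 3.32, 3.48 and 3.46 in control roots and 9.57, 8.10 and 9.57 with arsenate, a 50.6-fold rise (5.66, SE 0.45, adjusted p = 7.56e-06). In all of these the lowest arsenic array lay more than 4 units above the highest control array.

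AT2G04050 (log2 change 5.50, SE 0.41) and AT2G04070 (5.28, SE 0.34) rose together and lie near each other on chromosome 2, with 4 protein-coding genes between them. AT2G04050 read 2.62, 2.47 and 2.02 in control roots and 8.29, 6.88 and 8.43 with arsenate. Next came AT4G12735 (5.24), AT2G21640 (5.21), AT2G38823 (5.17), AT1G60750 (5.15) and AT2G41730 (4.95). AT2G38823 had the narrowest spread among these, with 4.32, 4.65 and 4.67 in control roots against 9.64, 9.37 and 10.13 with arsenate (SE 0.27, adjusted p = 3.92e-07). AT1G55230 had the widest, with 4.50, 3.90 and 4.90 against 9.33, 7.87 and 10.34 (4.75, SE 0.87, adjusted p = 0.00229), and still no overlap. AT5G38910 was already at 7.66, 7.58 and 7.06 in control roots and reached 12.09, 11.76 and 12.33 with arsenate, a 24.7-fold rise (4.63, SE 0.38). AT4G33666 (4.34), AT1G71140 (4.30) and GSTU25 (4.27), a glutathione S-transferase of the tau class, complete the 15, whose smallest rise was 19.3-fold.

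Of the 15 largest falls 14 were in genes with a locus code alone, also near the share of such genes among all genes tested. AT2G22122 read 8.95, 8.97 and 8.97 in control roots and 2.14, 4.53 and 3.50 with arsenate, a 47.7-fold fall (log2 change -5.57, SE 0.60, adjusted p = 6.34e-05). AT3G01260 read 10.09, 10.09 and 10.12 against 4.03, 5.58 and 4.73, a 39.9-fold fall (-5.32, SE 0.30, adjusted p = 4.96e-07). AT4G12545 read 7.37, 7.93 and 7.81 against 3.03, 2.98 and 2.71 (-4.79, SE 0.26, adjusted p = 4.49e-07). The control arrays of the first 2 genes lay within 0.03 of each other, while their arsenic arrays differed by more than 1 unit.

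AT4G39675 (-4.31), AT5G26130 (-4.03), AT4G11210 (-3.88), AT5G19700 (-3.73), AT4G29905 (-3.73), AT3G23510 (-3.72) and AT2G36690 (-3.59) followed. Of the named exception, the serine carboxypeptidase-like gene scpl33, the control arrays read 6.62, 6.50 and 6.37 and the arsenic arrays 2.72, 2.41 and 2.33 (-4.01, SE 0.18, adjusted p = 1.27e-07). AT1G45015 (-3.55), AT5G46900 (-3.53), AT1G49500 (-3.44) and AT5G52790 (-3.43) complete the list, whose smallest fall was 10.8-fold. AT5G46900 read 4.65, 5.68 and 5.40 in control roots and 1.76, 1.63 and 1.76 with arsenate, near the bottom of the signal range. All 30 of these genes passed again in each of the 6 fits that left out 1 control or arsenic array.

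**Figure D2:**
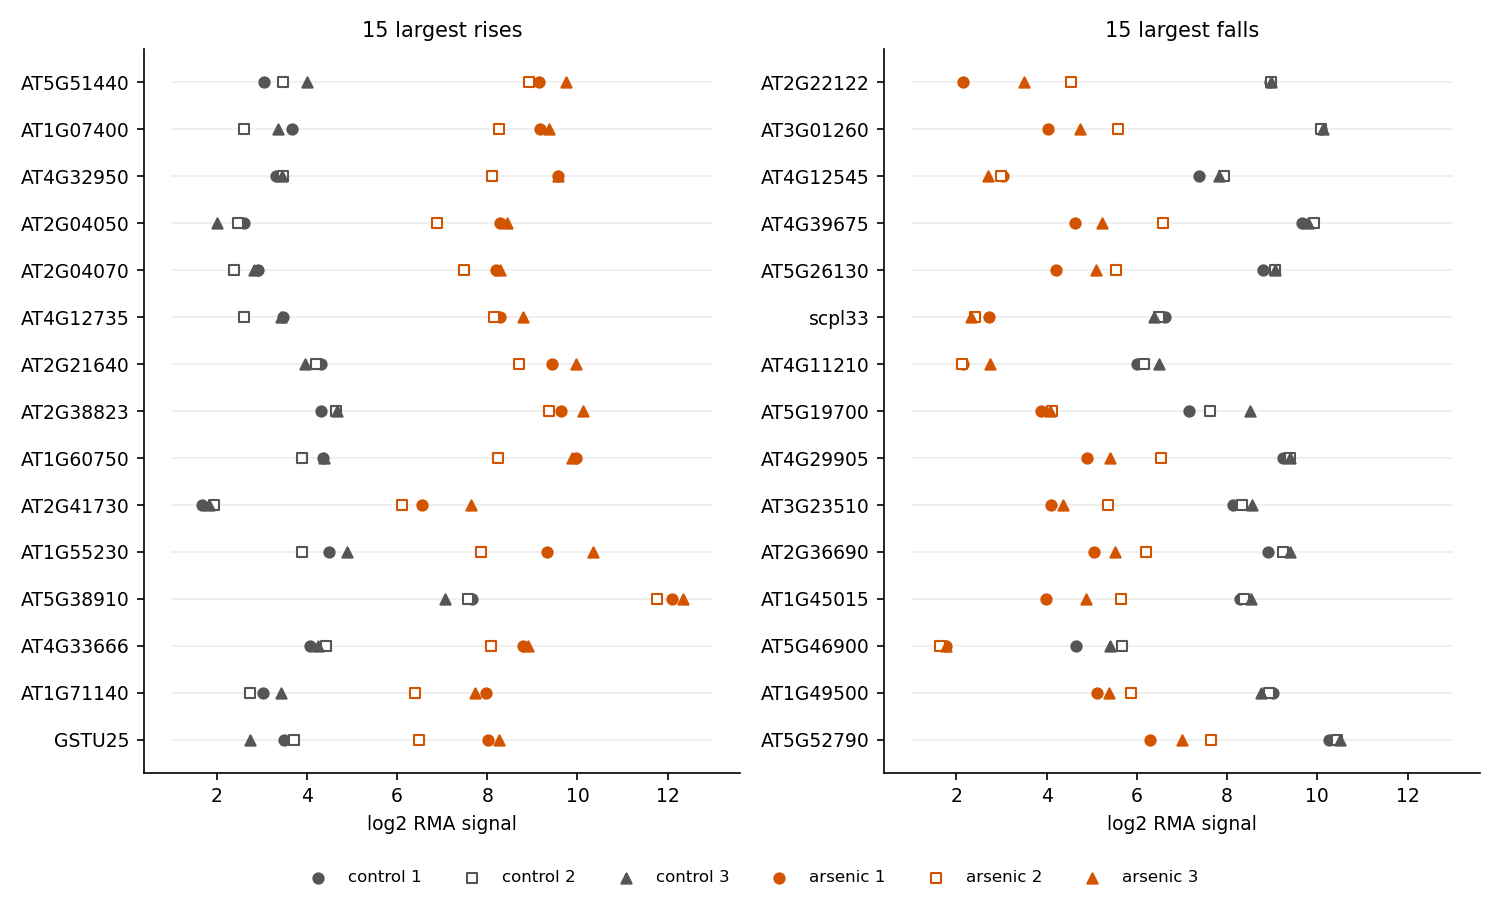
Log2 signal of the 15 largest rises (left) and 15 largest falls (right) in each control array (grey) and each arsenic array (orange), with replicate 1 as a circle, 2 as an open square and 3 as a triangle. No gene's groups overlap, and arsenic array 2 is the arsenic array nearest the controls in all 15 rises and in 11 of 15 falls.

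The arsenic arrays differed in how far they moved. Arsenic array 2 lay nearest the control mean in 15 of the 15 ranked rises and in 11 of the 15 ranked falls. The median distance from the control mean over the ranked rises was 5.11 in arsenic array 1, 4.51 in array 2 and 5.68 in array 3. The same held more weakly across all calls, with array 2 nearest in 770 of the 1380 genes that rose (55.8%) and in 899 of the 1585 that fell (56.7%). It also had the highest correlations with the control arrays (0.963 to 0.965, against 0.946 to 0.955 for the others). Without it, 2492 genes passed. How often array 2 lay nearest among all genes tested was not computed. The counts of genes in which it lay nearest are therefore not read as particular to the genes that passed.

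The groups of genes named from here on are described by their counts and medians beside those of all genes tested (8.34% rose, 9.58% fell, median change -0.01), with no test of a group. A group counts the genes whose name the annotation or RefSeq gives, so members that have a row under a code without that name are left out, among them 4 of the heat shock and chaperone list and 1 of the root hair list. Of 32 listed phosphate starvation genes and 9 arsenic handling genes 0 were so counted, and their response is not described here. Of 26 listed genes for sulfate assimilation, glutathione and phytochelatins 3 were counted, of which 0 rose and 1 fell. The groups were formed with earlier results of these data known, so their counts describe these values and are no independent support for a pattern. Genes with a symbol that belong to no group were chosen after their values were seen.

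Genes for protein folding rose widely. Of 15 heat shock and chaperone genes so counted 11 rose and 0 fell, with a median change of 1.25. AT5G48570, which RefSeq also names ROF2 and which encodes a heat-induced prolyl isomerase, read 5.77, 5.72 and 5.73 in control roots and 9.60, 9.42 and 9.82 with arsenate (3.87, SE 0.53, adjusted p = 0.000336). Both groups were tight and far apart, and the standard error reflects the spread shared with the hypoxic groups. HSA32, needed for long-term acquired heat tolerance, read 3.74, 4.23 and 4.11 against 6.48, 5.99 and 6.58 (2.32, SE 0.24, adjusted p = 4.27e-05). The co-chaperone genes Fes1A (3.63) and Hop3 (3.51) and the stress factor gene DREB2C (3.70) rose further. The Hsp70 gene Hsp70-2 rose by 2.08, the J-domain co-chaperone gene ATJ1 by 1.14 and Hop2, which links Hsp70 and Hsp90, by 0.81. Genes of the plastid chaperonin rose as well, namely Cpn60beta2 (1.51, SE 0.26, adjusted p = 0.00142), Cpn60beta3 (0.79) and Cpn60beta4 (1.25, adjusted p = 0.0328). Of the fits that left out 1 control or arsenic array, Cpn60beta4 passed only in the one without arsenic array 1. Hop1 (-0.38), Fes1B (-0.53), Fes1C (0.14) and ATHSP22.0 (-0.13) did not pass.

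Of 3 genes for folding in the endoplasmic reticulum (ER), the membrane-bound transcription factor genes BZIP60 (1.08, SE 0.28, adjusted p = 0.0166) and BZIP28 (0.61, SE 0.16, adjusted p = 0.0199) rose, and the chaperone gene BIP1 (0.21, adjusted p = 0.754) did not pass. Neither rise passed without arsenic array 1, arsenic array 3 or control array 3, BZIP60 did not pass without control array 2 (adjusted p = 0.0734), and BZIP28 did not pass without control array 1.

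Among UDP-glycosyltransferases, which attach sugars to hormones, flavonoids and foreign compounds, the rises were concentrated in 1 subfamily. Of 51 measured genes 10 rose and 3 fell (median 0.11), and 7 of the 10 that rose were among the 10 measured members of UGT73 (median 1.61, 0 fell). UGT73B3 read 2.82, 2.08 and 2.39 in control roots and 6.11, 4.99 and 6.75 with arsenate (3.52, SE 0.46, adjusted p = 0.000224). Its neighbour UGT73B2 read 3.07, 2.98 and 3.12 against 6.59, 5.58 and 7.16 (3.38, SE 0.38, adjusted p = 8.55e-05). UGT73B1, the next gene in the row, rose less, by 0.98 (SE 0.21, adjusted p = 0.00682). UGT73B4 (2.01), UGT73D1 (1.82), UGT73C7 (1.72) and UGT73B5 (1.5) also rose, while UGT73C1, UGT73C2 and UGT73C6 lay between -0.10 and 0.32. Outside the subfamily, UGT87A2 rose by 3.35 (SE 0.34, adjusted p = 4.13e-05), whereas UGT71C1 (-1.11), UGT71C2 (-1.17) and the glucosinolate synthesis gene UGT74B1 (-1.07, adjusted p = 0.0199) fell. UGT73B4 did not pass without arsenic array 3 or control array 2, nor UGT74B1 without arsenic array 1 or 3 or control array 1 or 2. Close relatives such as these can bind each other's probes.

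Genes that handle reactive oxygen and electrons were split within families. Of the 4 measured alternative NAD(P)H dehydrogenases, which pass electrons into the mitochondrial respiratory chain without pumping protons, NDB2 and NDB4 rose while NDB3 (-0.02) and NDC1 (-0.13) did not pass. NDB2 read 7.29, 7.23 and 7.04 in control roots and 10.08, 9.48 and 10.09 with arsenate, a 6.48-fold rise (2.70, SE 0.28, adjusted p = 4.51e-05). NDB4 read 3.09, 2.71 and 3.53 against 6.43, 5.15 and 6.35, a 7.29-fold rise (2.87, SE 0.32, adjusted p = 7.64e-05).

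The methionine sulfoxide reductases of the B type, which repair oxidised methionine in proteins, went both ways, with 1 of 6 that rose and 3 that fell. MSRB5 read 6.57, 6.74 and 6.65 in control roots and 3.77, 4.62 and 4.57 with arsenate (-2.33, SE 0.22, adjusted p = 2.68e-05). Its neighbour MSRB4 read 9.16, 9.25 and 9.11 against 7.02, 6.78 and 7.68 (-2.01, SE 0.22, adjusted p = 7.90e-05). MSRB3, which lies directly beside MSRB4, rose instead, from 7.78, 7.50 and 7.52 to 8.58, 8.28 and 8.63 (0.89, SE 0.17, adjusted p = 0.00361). MSRB9 fell by 2.5 (SE 0.41, adjusted p = 0.00121), while MSRB6 (1.11, adjusted p = 0.0564) and MSRB8 (0.15) did not pass.

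Glutathione S-transferases, which join glutathione to foreign or oxidised compounds, showed the same contrast between neighbours. Of 15 measured, 3 rose and 6 fell (median -0.39), and without arsenic array 1 the falls numbered 3. GSTU25 read 3.49, 3.72 and 2.75 in control roots and 8.02, 6.48 and 8.27 with arsenate, a 19.3-fold rise. GSTU26, directly beside it on chromosome 1, read 7.99, 8.11 and 8.14 against 4.69, 5.56 and 5.60, a 6.95-fold fall (-2.80, SE 0.42, adjusted p = 0.000582). In another row on chromosome 1, GSTU22 rose by 3.05 between GSTU23 (-0.39) and GSTU21 (0.52), which did not pass, and the next gene GSTU20 fell by 1.45 (adjusted p = 0.0139), a fall that did not pass without arsenic array 1. The lambda class gene GSTL3 rose by 1.52 (SE 0.15, adjusted p = 3.48e-05), ATGSTF13 fell by 1.2, and GSTF3 (1.2, adjusted p = 0.0517) did not pass. Among the 9 measured antioxidant genes 2 rose and 1 fell, the rises being glutathione reductase GR1, from 8.69, 8.68 and 8.80 to 10.11, 10.13 and 10.22, and the copper chaperone gene CCS (0.90). The fall was MSRB9, already described.

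Genes of the ER body fell together. ER bodies are beta-glucosidase stores of Brassicaceae roots and seedlings, with a part in defence, in which PYK10 is the main enzyme, BGLU21 and BGLU22 are close relatives, NAI2 is needed for their formation and NAI1 is the transcription factor that drives these genes. Of 5 measured, 0 rose and 4 fell (median -1.55). NAI1 read 6.70, 6.05 and 5.80 in control roots and 4.22, 4.61 and 3.92 with arsenate (-1.93, SE 0.26, adjusted p = 0.000249). NAI2 read 11.37, 11.51 and 11.50 against 9.66, 10.50 and 9.70 (-1.50, SE 0.21, adjusted p = 0.000429). BGLU22 fell by 1.86 (SE 0.27, adjusted p = 0.000432) and PYK10 by 0.92 (SE 0.23, adjusted p = 0.0161), the latter not past the threshold without arsenic array 1 or 3 or control array 1 (adjusted p up to 0.0736). BGLU21 read 11.54, 11.58 and 11.46 against 10.03, 9.94 and 9.95, with no overlap, but did not pass (-1.55, SE 0.53, adjusted p = 0.0639). Its standard deviation was 0.06 in control and 0.05 in arsenic arrays, but 1.21 with hypoxia and 1.06 with both. The standard error reflects the spread shared with the hypoxic groups.

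Jacalin-related lectins, sugar-binding proteins some of which assemble with PYK10 when tissue is damaged, fell alongside. Of 5 measured, 0 rose and 4 fell (median -1.29). JAL34 read 10.66, 10.66 and 10.64 in control roots and 8.88, 9.52 and 9.0 with arsenate (-1.52, SE 0.20, adjusted p = 0.000249). JAL31 fell by 1.92 (SE 0.24, adjusted p = 0.000175), JAL22 by 1.29 and JAL33 by 0.91 (adjusted p = 0.0167), while JAL23 did not pass (0.07). The fall of JAL33 did not pass without arsenic array 1 or 3 or control array 2 (adjusted p up to 0.0799). In the wider beta-glucosidase family, with 23 measured, 3 rose and 3 fell (median 0.04). BGLU42 rose by 2.04 (SE 0.32, adjusted p = 0.000861), BGLU25 by 1.17 and BGLU33 by 0.59 (adjusted p = 0.0541 without control array 3), and BGLU47 fell by 1.16.

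**Figure D3:**
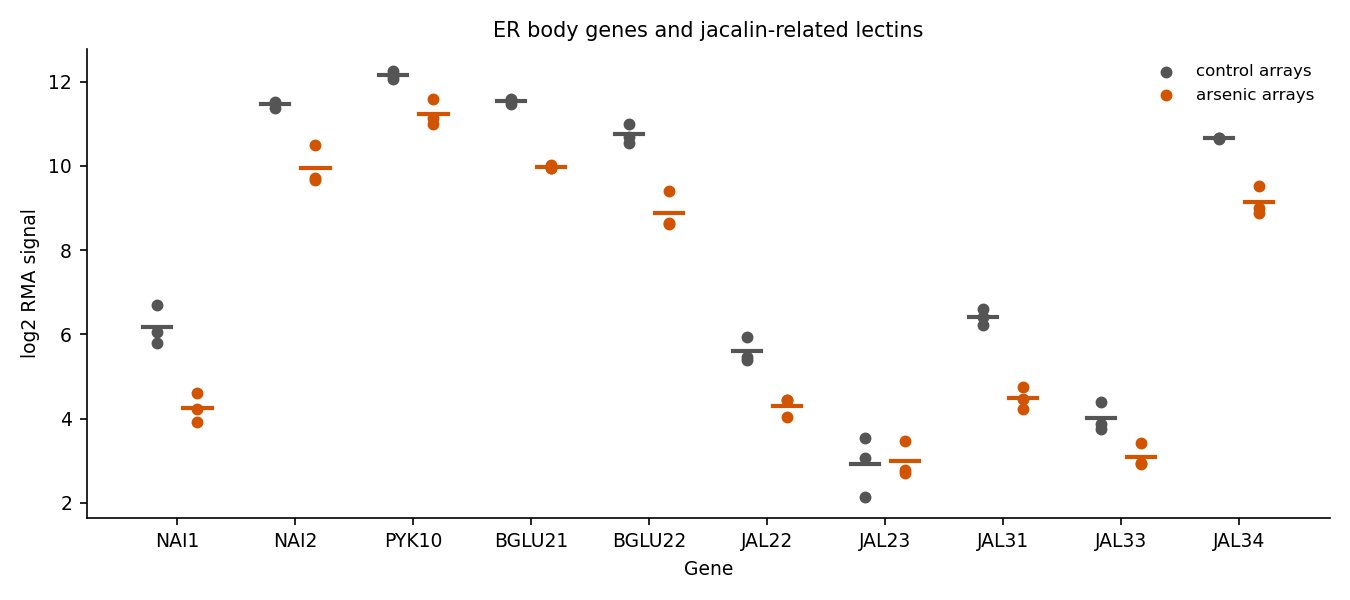
Log2 signal of ER body genes and jacalin-related lectins in the 3 control arrays (grey) and 3 arsenic arrays (orange), each point 1 array and each bar the group mean. The groups are apart in every gene except JAL23, including BGLU21, which did not pass the test (-1.55, adjusted p = 0.0639).

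Genes for the RNA polymerases that make ribosomal and transfer RNA rose. All 4 measured subunits of RNA polymerases I and III passed, in the fit on all arrays and in each of the 6 fits without 1 array. NRPA1, the largest subunit of polymerase I, read 7.50, 7.53 and 7.67 in control roots and 9.13, 8.90 and 9.18 with arsenate (1.5, SE 0.17, adjusted p = 8.50e-05). NRPC1, the largest subunit of polymerase III, read 6.73, 6.71 and 6.40 against 8.72, 8.43 and 8.53 (1.94, SE 0.31, adjusted p = 0.000896). The second-largest subunits NRPA2 (1.1, SE 0.18) and NRPC2 (1.1, SE 0.18) rose to the same extent as each other. Of 13 subunits of polymerases II, IV and V, 1 rose, NRPB7 (0.53, adjusted p = 0.0317), and 0 fell (median 0.18). NRPB7 did not pass without arsenic array 1 or 3 or control array 2 or 3 (adjusted p up to 0.137). The largest subunits of those polymerases are not among the 13. In hypoxic roots the arsenate difference (combination minus hypoxia, on other arrays) was 0.96 for NRPA1, 0.79 for NRPA2, 1.56 for NRPC1 and 0.75 for NRPC2, and the interaction did not pass for any of them (adjusted p 0.278 to 0.729). Of 8 measured chromatin remodelling genes 3 rose, CHR23 (1.96, SE 0.26, adjusted p = 0.000257), CHR40 (1.05) and CHR24 (0.74), with CHR40 not past the threshold without arsenic array 1 or control array 1 or 3.

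Genes for the removal of proteins and cell parts rose in places. Of 8 autophagy genes 4 rose and 0 fell (median 0.58), and 2 rose without arsenic array 3, control array 2 or control array 3. ATG8B, one of the small proteins that coat the growing autophagosome, read 6.30, 6.57 and 6.59 in control roots and 8.19, 7.99 and 8.40 with arsenate (1.71, SE 0.24, adjusted p = 0.000346). ATG8H rose by 0.92 (SE 0.21, adjusted p = 0.00820), ATG8D by 0.72 and ATG3, which joins ATG8 to lipid, by 0.43, the last of which passed again only without arsenic array 2. Of 15 ubiquitin-conjugating enzymes 2 rose, UBC30 (1.00, SE 0.17) and UBC32 (0.83, SE 0.13), of 12 ubiquitin-specific proteases 3 rose, UBP18 (0.74), UBP23 (0.74) and UBP19 (0.55), and of 10 plant U-box ligases 1 rose, PUB54 (2.36, SE 0.21, adjusted p = 1.69e-05). In these 3 families 0 fell, and UBP19 passed again only without arsenic array 2 or control array 1. The counts of risen conjugating enzymes and U-box ligases lie near the share of all genes that rose (8.34%).

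Families of the cell wall and of cell expansion differed in how many members fell. Of 9 xyloglucan endotransglucosylases, which cut and rejoin wall xyloglucan, 0 rose and 5 fell (median -1.2). XTH21 fell most, by 2.73 (SE 0.28, adjusted p = 4.32e-05). XTH16 read 4.78, 5.21 and 5.68 in control roots and 2.97, 2.67 and 3.06 with arsenate (-2.33, SE 0.20, adjusted p = 1.29e-05). XTH33 (-1.2) and XTH19 (-1.08) also fell. The 3 root hair genes counted fell, XTH26 (-2.12), EXPA18 (-1.21) and EXPA7 (-0.98), but without control array 2 or control array 3 only XTH26 passed. Of 22 expansins, the latter 2 included, 1 rose and 2 fell (median -0.03, and 0.07 after re-centring on the genes tested), and of 19 glycosyl hydrolases of family 9, which cut wall glucans, 1 rose and 2 fell (median -0.15), both near the shares of all genes. GH9B17 (-1.24, SE 0.28, adjusted p = 0.00841) and GH9B7 (-0.96) fell, and GH9A3 rose by 1.14. The expansin that rose was EXLB1 (0.84, adjusted p = 0.0202), which passed again only without arsenic array 2 or control array 1. RefSeq's other names put the laccase LAC9 on AT5G01050 (-2.53, SE 0.51) and the peroxidase PRX25 on AT2G41480 (-1.95, SE 0.38), and both fell.

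Microtubule genes fell in some families and went both ways in another. Of 5 SPIRAL1-like genes, whose products bind microtubules and guide cell elongation, 3 fell (median -0.77), namely SP1L4 (-1.74, SE 0.25, adjusted p = 0.000430), SP1L2 (-0.93) and SP1L3 (-0.77). Of 7 tubulin genes 4 fell and 0 rose (median -0.57). TUB5 read 6.12, 6.68 and 6.56 in control roots and 5.27, 5.22 and 5.26 with arsenate (-1.2, SE 0.20, adjusted p = 0.00128). TUB1 (-1.36), TUB7 (-0.59) and TUBG1 (-0.56) fell too, and TUB5 alone of the 4 passed without arsenic array 3 or without control array 2. Of 14 TON1 recruiting motif genes, whose products organise microtubule arrays, 2 rose and 3 fell (median -0.20). TRM19 rose by 2.09 (SE 0.14, adjusted p = 1.74e-06) and TRM15 by 0.61, while TRM27 (-1.34, SE 0.15, adjusted p = 9.98e-05), TRM28 (-0.86) and TRM30 (-0.65) fell. TRM15 did not pass without arsenic array 2 or control array 1 or 2, nor TRM30 without arsenic array 1 or any 1 of the control arrays. AUR1, a mitotic kinase, fell from 7.54, 7.62 and 7.42 to 6.28, 6.24 and 6.34 (-1.24, SE 0.18, adjusted p = 0.000452). The 2 other cell division genes measured, AUR2 (-0.52) and HTR12 (-0.29), did not pass, while the cell cycle inhibitor gene SIM fell by 0.92 (SE 0.14, adjusted p = 0.000650).

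Sugar transporters of the SWEET family fell in 3 of 14 members and rose in 0, although the family median was -0.08 (0.02 after re-centring on the genes tested). SWEET16 read 9.88, 8.97 and 8.94 in control roots and 7.34, 7.44 and 6.85 with arsenate (-2.06, SE 0.33, adjusted p = 0.000988). SWEET17, like SWEET16 a transporter of the vacuolar membrane, read 8.56, 8.24 and 8.33 against 6.82, 7.62 and 7.09 (-1.2, SE 0.20, adjusted p = 0.00130). SWEET11, which exports sucrose across the plasma membrane, fell by 1.94 (SE 0.24, adjusted p = 0.000170). Among 10 glutamate receptor-like channels, ATGLR1.2 rose from 3.46, 3.11 and 3.3 to 6.51, 5.96 and 6.28 (2.96, SE 0.22, adjusted p = 5.63e-06), and the adjacent genes GLR2.3 (-2.15, SE 0.30) and GLR2.2 (-1.47, adjusted p = 0.0182) fell, GLR2.2 not without arsenic array 1 or 3 or control array 3. OCT1, an organic cation transporter gene, read 3.63, 3.38 and 3.70 in control roots and 6.76, 6.87 and 6.84 with arsenate (3.25, SE 0.14, adjusted p = 1.27e-07). GTR2, which carries glucosinolates, fell by 1.07 (SE 0.17, adjusted p = 0.000824).

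Named genes of hormone action, metal use and secondary metabolism were among the rises. GH3.3, which joins auxin to amino acids, read 3.48, 3.11 and 3.93 in control roots and 6.94, 6.17 and 7.58 with arsenate (3.39, SE 0.56, adjusted p = 0.00124), while the 4 other auxin genes measured did not pass (-0.94 to 0.15). SUFE2, a sulfur donor factor for iron-sulfur clusters, rose by 3.04 (SE 0.34, adjusted p = 8.14e-05), and CHIL, a chalcone isomerase-like gene of the flavonoid pathway, by 2.79 (SE 0.32, adjusted p = 9.99e-05). LPR1, a ferroxidase gene, rose by 1.73 (SE 0.23, adjusted p = 0.000280), and the osmotin-like gene OSM34 went from 9.85, 9.77 and 9.56 to 11.40, 11.32 and 11.26 (1.60, SE 0.13, adjusted p = 1.18e-05). Of 26 cytochromes P450 4 rose and 3 fell (median -0.08, and 0.02 after re-centring on the genes tested), led by CYP71B5 (2.24, SE 0.29) and CYP71B26 (-1.99, SE 0.23).

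Among transcription factors, the bZIP family had members that moved both ways. Of 17 bZIP factors 3 rose and 4 fell (median 0.08). The falls were bZIP58 (-2.31, SE 0.42, adjusted p = 0.00215), BZIP34 (-1.68, SE 0.21), BZIP24 (-1.04) and BZIP61 (-1.0), which passed in all 6 fits without 1 array. The rises were BZIP60, bZIP23 (0.87) and BZIP28, and none of the 3 passed without arsenic array 3 or without control array 3. Of 7 WRKY factors (median 0.40, 0 fell) WRKY6 (1.16, SE 0.21, adjusted p = 0.00237) and WRKY20 (0.59) rose, WRKY20 again only without arsenic array 2 or control array 2. The wax regulator gene DEWAX (AT5G61590 in the annotation) fell from 7.57, 7.39 and 7.15 to 5.16, 5.92 and 5.10 (-1.97, SE 0.26, adjusted p = 0.000230).

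Of 64 AGAMOUS-like factors 3 rose and 2 fell (median -0.01, which turns to 0.08 after re-centring on the genes tested), and of 63 low-molecular-weight cysteine-rich peptides 0 rose and 1 fell, LCR68 (-1.41, SE 0.29, adjusted p = 0.00464). Of 18 RALF-like peptides RALFL27 fell most, from 6.09, 5.67 and 5.97 to 3.00, 3.50 and 3.61 (-2.54, SE 0.23, adjusted p = 1.99e-05). Of 8 plant defensins 0 passed with limma, and 0 had an unadjusted p under 0.05 (lowest change -0.35, highest 0.50), and 0 did in any fit without 1 array. The plastid genome had 63 measured genes, of which 0 rose and 8 fell (median -0.23), led by psbJ (-0.96, SE 0.16, adjusted p = 0.000996), and the falls numbered 2 without control array 1, 3 without arsenic array 1 and 4 without arsenic array 3.

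**Figure D4:**
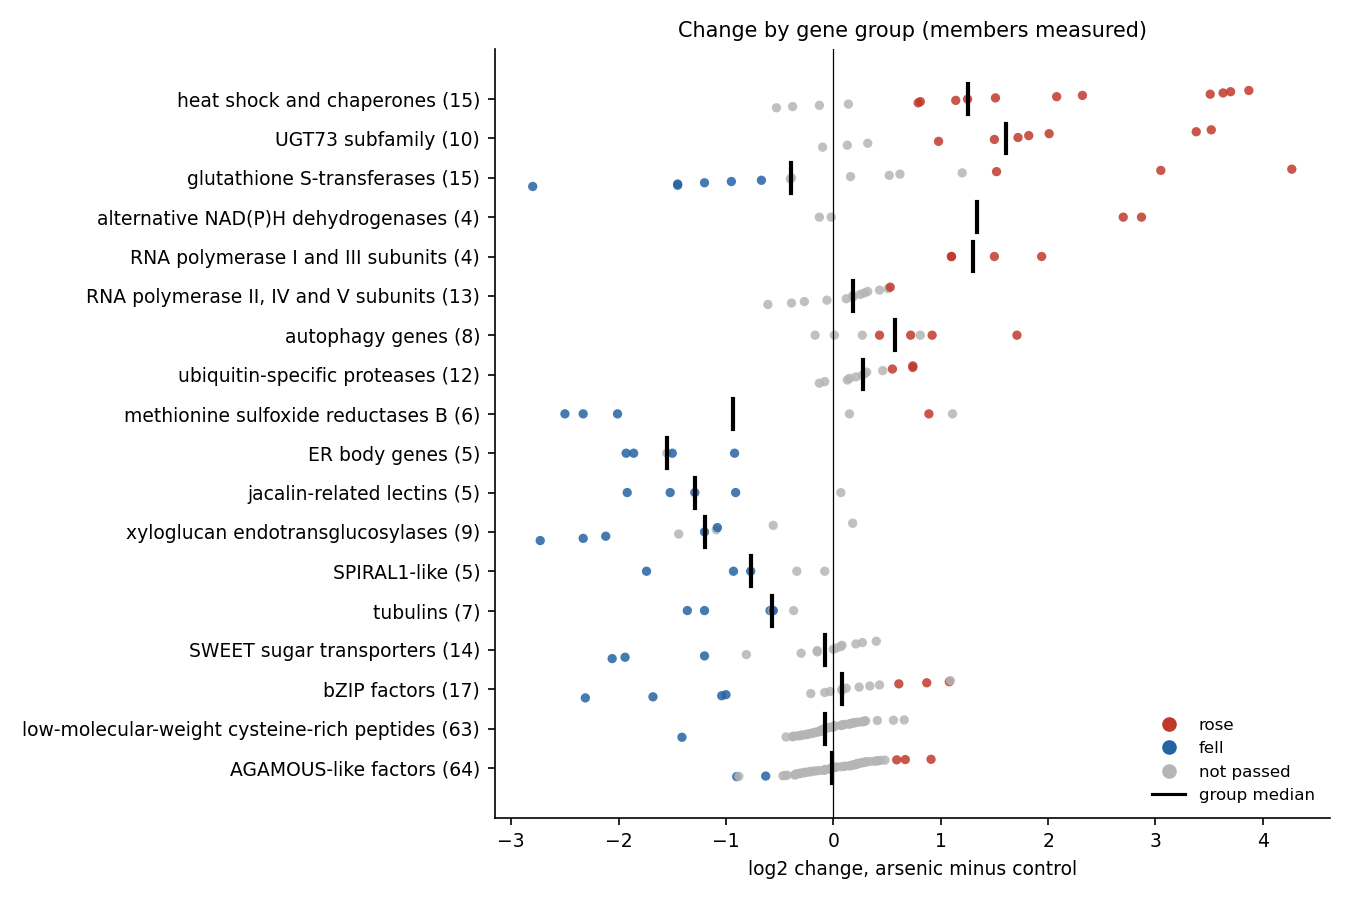
Each point is 1 measured gene of the group named at the left, with its log2 change (arsenic minus control) on the horizontal axis, red if it rose, blue if it fell and grey if it did not pass, and a black bar at the group median. Chaperones (median 1.25), UGT73 (1.61) and polymerase I and III subunits (1.30) lie to the right, ER body genes (-1.55), lectins (-1.29) and xyloglucan enzymes (-1.2) to the left, and glutathione S-transferases on both sides.

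Position along the chromosomes was compared with the calls, taking genes in the order of RefSeq's TAIR10.1 table. Among 10357 pairs of measured neighbours, both rose in 125, both fell in 150, and 1 rose while the other fell in 134. A measured neighbour of a risen gene had itself risen in 250 of 1731 cases (14.4%, against 8.34% of all genes), and a neighbour of a fallen gene had fallen in 300 of 2001 cases (15%, against 9.58%). Among the 83 adjacent pairs of the same family in the groups above, both rose in 5, both fell in 4, and they moved in opposite directions in 2, GSTU25 with GSTU26 and MSRB3 with MSRB4. One run of 4 neighbours fell together, AT3G51325 (-0.75), AT3G51330 (-0.44), AT3G51340 (-1.46) and AT3G51350 (-1.2) on chromosome 3, of which the last 2 passed in all 6 fits without 1 array and AT3G51330 in 0.

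The 30 ranked genes were then followed in hypoxic roots, where arsenate makes the difference between the combination and the hypoxia group. Over the 15 rises the median change was 5.17 without hypoxia and 0.57 in hypoxic roots (-0.96 to 1.65), and over the 15 falls it was -3.73 and -1.32 (-4.15 to -0.22). The change was smaller in hypoxic roots in all 15 rises and all 15 falls. The interaction passed in 15 of the rises and 8 of the falls, where 2.76% of all genes passed it. The same arsenic and control arrays ranked these genes and enter the interaction, which favours a smaller change on the other side, so the count is not read against that share. The combination and hypoxia arrays took no part in the size of the ranked changes. They did enter the spread used in the test that a ranked gene had to pass, and the mean that chose its row.

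In many of these genes the mean with hypoxia alone also differed from control in the direction of the arsenate change. The hypoxia mean lay above the control mean in all 15 rises and below it in 11 of the 15 falls. The matching shares over all genes were not computed, so these counts are not read as particular to the ranked genes. These comparisons share the control arrays, so the values stand side by side. AT4G32950 had a mean of 3.42 in control roots, 9.08 with arsenate, 9.02 with hypoxia and 9.11 with both. AT5G38910 had 7.43, 12.06, 10.61 and 12.26 in the same order. Some rises stayed low with hypoxia, among them GSTU25 (3.32, 7.59, 3.96 and 3.73), AT1G71140 (3.07, 7.37, 4.07 and 4.64) and AT1G60750 (4.21, 9.37, 5.13 and 5.44). Among the falls, AT4G12545 kept its arsenate response in hypoxic roots, with 7.70 in control roots, 2.91 with arsenate, 7.47 with hypoxia and 3.32 with both (interaction 0.64, SE 0.37, adjusted p = 0.422). AT5G19700 did likewise, with 7.76, 4.03, 8.30 and 5.01 (0.45, SE 0.50, adjusted p = 0.718). In contrast scpl33 was as low with hypoxia as with arsenate, at 6.50, 2.49, 2.63 and 2.41.

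**Figure D5:**
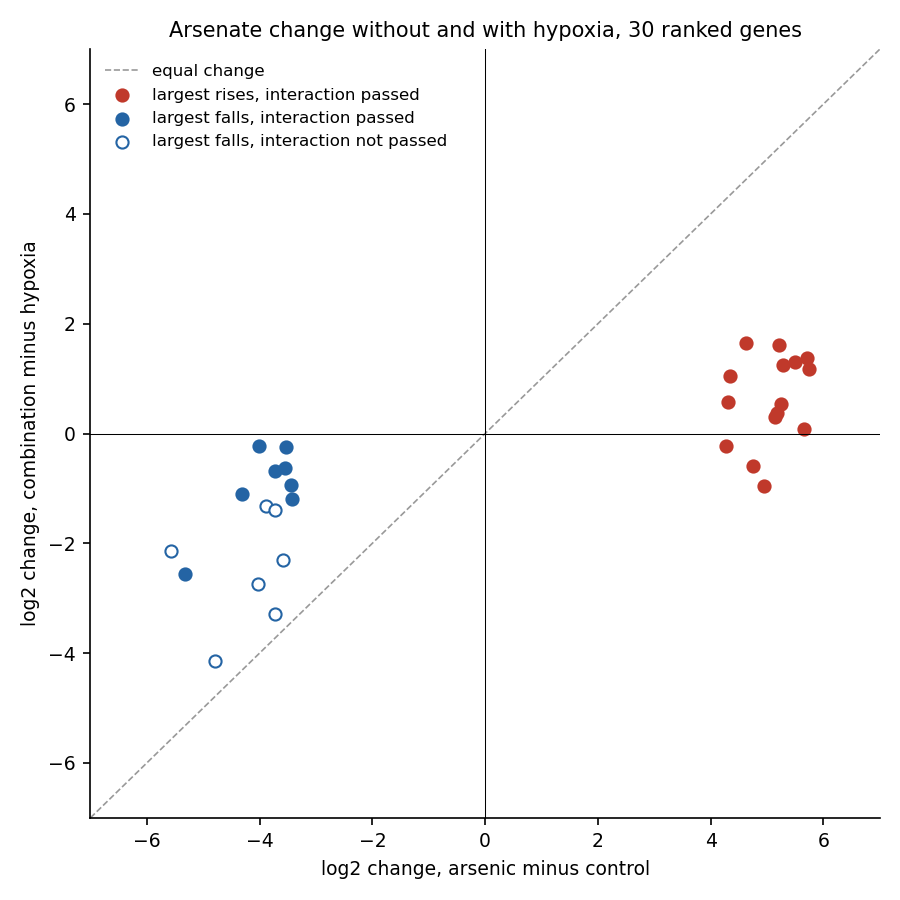
Log2 change with arsenate in roots without hypoxia (arsenic minus control, horizontal) and in hypoxic roots (combination minus hypoxia, vertical) for the 30 ranked genes, filled where the interaction passed and open where it did not. All points lie between the dashed line of equal change and the horizontal axis or just beyond that axis, with a median of 0.57 in hypoxic roots for the rises and -1.32 for the falls.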

How the data were processed

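RNA was hybridised to 12 Affymetrix arrays, 3 each of control, arsenic, hypoxia and combination roots. Per the submitters' processing notes the authors used RMA. The notes also name Transcriptome Analysis Console 3.1 and Expression Console (1.4, 1.4.1). The deposited values are log2 signals, 1 per row and array. The genome build is not given in the sources used here.

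Of 38408 rows, 17481 are in the platform annotation used here, 16722 of them with 1 gene and 759 with several. RefSeq's TAIR10.1 table matched 16574 of the 16722 and gave gene order and other names, with no coordinates used. Rows naming the same gene were reduced to 1, leaving 16548 genes.

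The test was limma 3.58.1 (lmFit and eBayes, R 4.3.3) on all 12 arrays, with 2-sided Benjamini-Hochberg adjusted p-values over all genes and a threshold of 0.05. The same fit gave the interaction. The p-values measure the spread between 3 independent replicates a group, which limits the precision. The script was tested on simulated data.

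The ranked genes are those that passed, had no overlap between groups and changed most, 15 in each direction, organelle genes aside. From each group up to 6 members, the largest changes either way, could be named, plus those needed to account for small counts. Groups were formed by gene symbol, in place of the planned search by annotation words, which matched few genes. The members and lists were chosen with earlier results of these data known. Promoter sequences were not analysed here.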

Additional observations from a re-analysis of the deposited data

Results flagged for a closer look

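The arsenate response of 23 of the 30 ranked genes differed between roots without and with hypoxia by limma's test of the interaction. These arrays also ranked the genes, which favours such a result. Negative values mean that a rise was smaller in hypoxic roots or absent there. Combination minus hypoxia was itself negative for AT2G41730 (-0.96), AT1G55230 (-0.60) and GSTU25 (-0.23). The interaction was -4.58 (SE 0.53, adjusted p = 0.000965) for AT5G51440, -4.34 for AT1G07400, -5.57 for AT4G32950, -4.19 for AT2G04050 and -4.04 for AT2G04070. It was -4.71 for AT4G12735, -3.59 for AT2G21640, -4.80 for AT2G38823, -4.84 for AT1G60750 and -5.91 (SE 0.60, adjusted p = 0.000432) for AT2G41730. The remaining rises had -5.34 (AT1G55230, SE 1.23, adjusted p = 0.0368), -2.98 (AT5G38910), -3.29 (AT4G33666), -3.74 (AT1G71140) and -4.50 (GSTU25).

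Positive values mean that a fall was smaller in hypoxic roots. The interaction was 3.79 (SE 0.25, adjusted p = 1.75e-05) for scpl33, 3.28 for AT5G46900, 3.20 for AT4G39675 and 3.05 for AT4G29905. It was 2.92 for AT1G45015, 2.76 for AT3G01260, 2.5 for AT1G49500 and 2.24 (SE 0.51, adjusted p = 0.0357) for AT5G52790. With hypoxia alone, scpl33 (mean 2.63) and AT5G46900 (1.70) were already near their arsenic means (2.49 and 1.72). Such low signals leave little room for a further fall in the combination group.

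Signal that differed was also found in rows outside the gene comparison. Of the 20927 rows that the annotation used here does not list, 2126 (10.2%) passed the same limma test, 1113 higher and 1013 lower with arsenate. They are unnamed here.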

How the results depend on the processing

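All 30 ranked genes passed in the same direction under every scaling and in each fit without 1 control or arsenic array. They were chosen as the largest changes that passed, and the scalings shifted changes by a median of 0.012 to 0.095. Passing under the scalings therefore adds little. Beside the 2965 genes that passed, the count was 3597 with the 6 control and arsenic arrays alone, 4700 with array weights (the cause was not tested), 3146 with a trended robust prior, 3101 without genes below the 0.25 quantile of mean signal and 567 in a test against a change of 1.5-fold, which asks for more by construction. Leaving out 1 array gave 1889 to 2492, and 1546 of the calls (52.1%) passed in all 6 such fits, against 1000 of those of at least 2-fold (84.3%). Re-centring on all rows gave 2867, quantile normalization 3037, and re-centring on the genes tested, an alternative chosen after seeing the data, 3032. Unlisted rows numbered 3502 with array weights and 1158 (without arsenic array 3) to 1583 (without arsenic array 2) with 1 array left out, beside 2126. The interaction passed in 20 to 24 ranked genes without 1 array and 25 with array weights, and the 6 arrays alone cannot give it. UGT74D1 did not pass in the main limma fit (-0.13, adjusted p = 0.743). With its row of the lowest mean it changed sign and passed as a rise (1.45, adjusted p = 0.00307), which the count of risen UDP-glycosyltransferases leaves out. With the replicate number as a block, 3067 genes, 24 interactions and 1927 unlisted rows passed. Deviations of same-numbered arsenic and control arrays correlated at 0.0675, 0.0638 and -0.0141, and not every array correlated best with its own number, so the numbers were not taken as pairs. The promoter motif shares and their alternative were not run. Array signal has no read depth, and low signals such as those of AT5G46900 with arsenate lie near the bottom of the range.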

Other observations

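Other families with named members divided or fell with arsenate, beside 8.34% of all genes that rose and 9.58% that fell. Of 23 trichome birefringence-like genes, which acetylate wall polysaccharides, 0 rose and 7 fell (median -0.27), and 4 fell without arsenic array 2 or control array 3. TBL34 (-1.53, SE 0.20, adjusted p = 0.000199), TBL37 (-1.52), TBL25 (-1.25) and TBL33 (-1.18) passed in all 6 fits without 1 array. Of 8 subtilases, SBT3.5 rose by 2.94 (SE 0.38, adjusted p = 0.000215) while ATSBT5.2 fell by 1.80 and SBT4.12 by 2.96. Of 12 tetraspanins, TET5 (-1.43, SE 0.27, adjusted p = 0.00299) and TET2 (-0.94) fell. Of 32 serine carboxypeptidase-like genes 2 rose and 5 fell (median -0.26), with SCPL34 (-1.76) and scpl31 (-1.29) behind scpl33 in size. In that family the falls numbered 3 without control array 2, and 0 rises passed without arsenic array 3, control array 2 or control array 3.

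Of 17 IQ-domain genes, calmodulin-binding scaffolds of the cytoskeleton, 1 rose and 4 fell, all with an adjusted p between 0.0177 and 0.0317, and 0 falls passed without control array 2. AGO7, which makes trans-acting small interfering RNA, fell by 1.47, and SKU5, a wall-associated protein gene of root growth, by 1.18.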
